A study of Rattus norvegicus with 40 samples.

Results

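The genes described here are 47 genes that cells use to copy DNA and to divide: 31 mitotic genes (cyclins and kinases of mitotic entry, the anaphase-promoting complex, kinetochore, spindle and cytokinesis genes) and 16 DNA replication genes (the MCM helicase, origin firing, the sliding clamp and nucleotide supply). They were chosen by symbol. Each was read from 1 probe set, the one of highest average in the 40 arrays among those that the platform annotation gives to that symbol alone. The annotation held 45 of the 47, which are 30 mitotic and 15 replication genes of 13437 genes measured, and Tpx2 and Cdc6 had no probe set of their own. Livers came from adult male rats of the Sprague Dawley SD:CD strain that received vehicle or GW7647 by oral gavage once a day for 4 days. GW7647 is a synthetic agonist of the nuclear receptor PPAR-alpha. There were 4 groups of 10 rats: vehicle, 0.1 mg/kg, 1 mg/kg and 10 mg/kg. Tissue was collected 24 h after the last gavage, and each liver was measured on 1 microarray of biotin-labelled RNA. The vehicle's composition is not named in the labels, and all animals were males of 1 strain.

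Most cells of an adult liver rest outside the cell cycle, and genes of DNA synthesis and division are then held at low levels. A cell that enters the cycle first transcribes replication genes, many of them targets of the E2F factors that the retinoblastoma family restrains. It transcribes the mitotic genes later, mostly through the B-MYB and FOXM1 forms of the MuvB complex, which bind a cell cycle homology region (CHR) beside NF-Y boxes in their promoters. Peroxisome proliferators, the drug class that acts through PPAR-alpha, are known for driving hepatocyte division in rats and mice. In a piece of whole liver, more dividing cells and more RNA per dividing cell cannot be told apart.

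All levels are log2 signals as deposited, so that a difference of 1.0 is a doubling, and levels of different genes are not compared with each other. The median of an array averaged 2.47 with vehicle and 2.47, 2.60 and 2.71 at 0.1, 1 and 10 mg/kg. Over all genes the median log2 change against vehicle was 0.16 at 1 mg/kg and 0.26 at 10 mg/kg. Because of that shift, rose and fell are used where limma's adjusted p was under 0.05 in the same direction on both scales, the deposited one and the one after quantile normalization, where the same medians were -0.01 and -0.02. Adjusted p-values without a scale named are those of the deposited scale. The livers carried their defining hepatocyte markers: the mean of 7 of them, albumin among them, lay between 11.99 and 12.29 in every rat. Of the 40 arrays, 2 of the 0.1 mg/kg group had upper quartiles below the rest (down to 4.27, against a group median of 4.81). The signal of the 3′ actin probe set minus that of the 5′ one is larger where RNA is less intact. This actin difference averaged 2.78 with vehicle and 2.85, 3.11 and 3.22 at 0.1, 1 and 10 mg/kg. The bacterial poly-A transcripts added before labelling averaged 5.57 with vehicle and 5.84, 6.22 and 6.56 at 0.1, 1 and 10 mg/kg, and within the 1 mg/kg group they were 5.25 to 5.70 in rats 1 to 4 and 6.34 to 7.39 in rats 5 to 10.

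At 1 mg/kg, 26 of 30 mitotic genes rose against vehicle on both scales, with a median log2 change of 1.19 (2.28-fold), or 0.94 (1.92-fold) after quantile normalization. Of the replication genes 6 of 15 rose, with a median of 0.42 (1.34-fold) on the deposited scale and 0.17 (1.13-fold) after quantile normalization. Of all 13437 genes, 11.1% rose on both scales in that comparison. At 10 mg/kg the counts were again 26 of 30 mitotic genes (median 1.12, or 0.90 after quantile normalization) and 6 of 15 replication genes (median 0.56, or 0.25), against 20.5% of all genes. No member fell on both scales at either dose, against 3.37% of all genes at 1 mg/kg and 7.69% at 10 mg/kg. The comparisons with vehicle share the same 10 vehicle rats. On the deposited scale alone 10 replication genes passed at 1 mg/kg, where 38.2% of all genes did, and 13 at 10 mg/kg, where 56.5% did. With the level of the poly-A transcripts as a covariate the counts on both scales were 26 and 6 at 1 mg/kg and 26 and 9 at 10 mg/kg, and with rats 1 to 4 alone in the 1 mg/kg group they were 25 and 6 at 1 mg/kg.

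**Figure D1:**
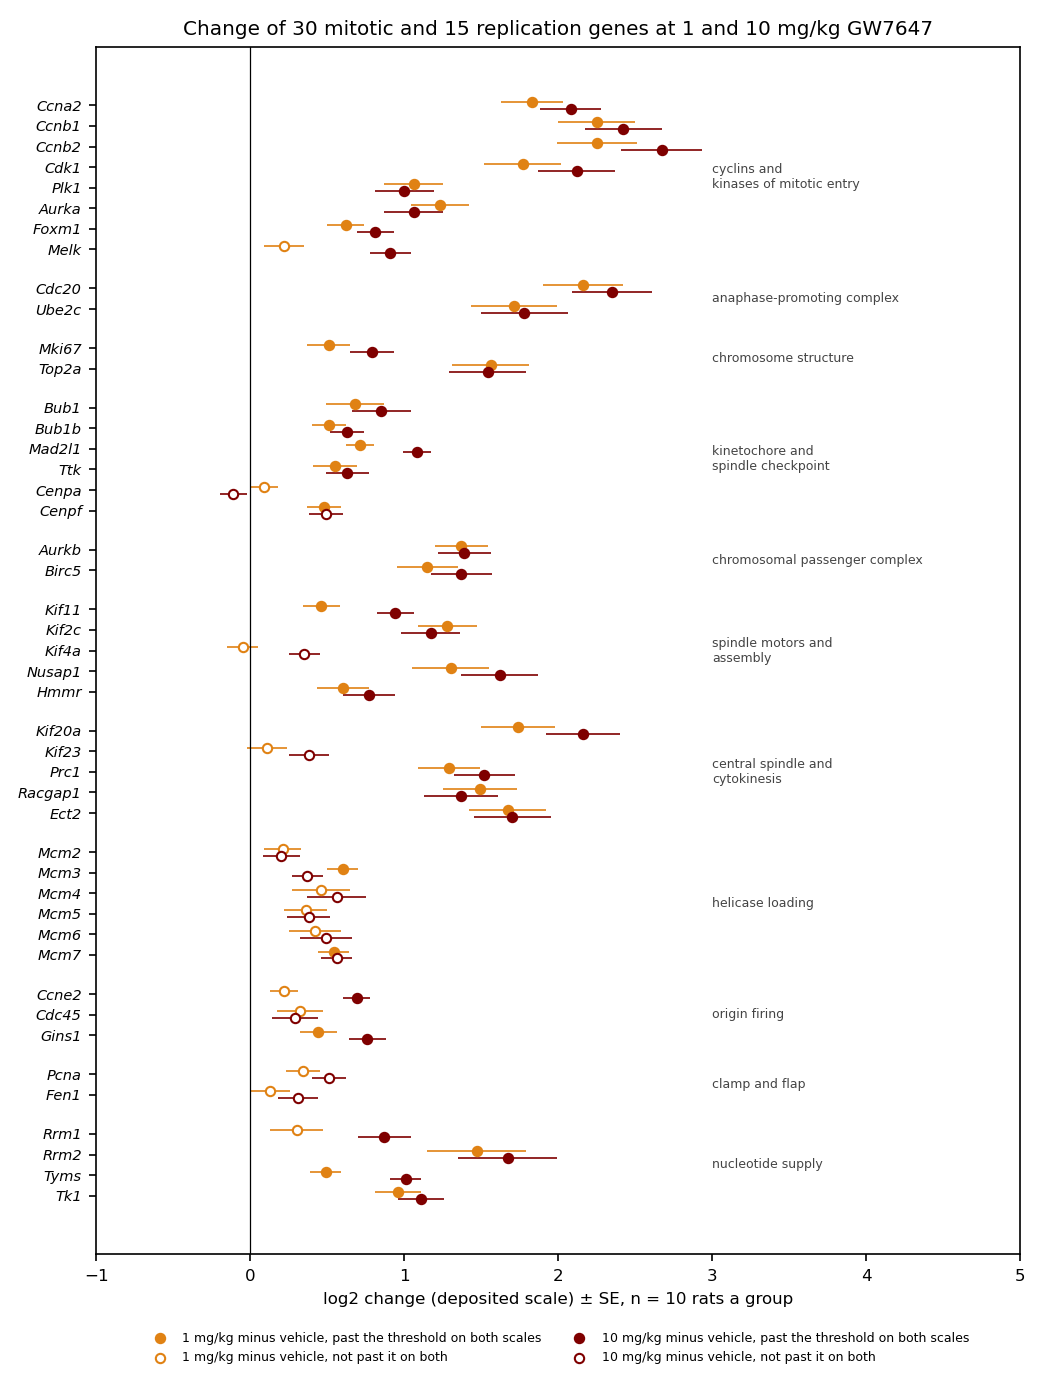
Log2 change on the deposited scale of each of the 45 genes at 1 and 10 mg/kg against vehicle, one row per gene in blocks by role. Points are changes, bars are 1 SE (10 rats per group), and filled points passed on both scales: 26 of 30 mitotic and 6 of 15 replication genes at each dose. Mitotic changes at 1 mg/kg reach 2.25 (Ccnb1 and Ccnb2) and replication changes 1.47 (Rrm2).

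The promoters of the 2 classes were searched for regulatory letters, which the choice of genes did not use. RefSeq promoters of the GRCr8 assembly, taken from 250 bases before to 50 bases after the gene start, were at hand for 37 of the 45 genes, 25 mitotic and 12 replication, and were searched on both strands. The letters CCAAT mark the NF-Y box, TTTGAA or TTTAAA the CHR, and TTCCCGC or TTGGCGC or TTCGCGC an E2F site. A CHR was found in 24 of 25 mitotic promoters (96.0%) and in 1 of 12 replication promoters (8.33%, Mcm2), against 19.6% of the 11056 promoters of tested genes. E2F letters were found in 4 of 25 mitotic promoters (16.0%) and 9 of 12 replication promoters (75%), against 13.4% of tested genes. NF-Y boxes occurred in both classes, in 19 of 25 mitotic (76.0%) and 8 of 12 replication promoters (66.7%), against 37.4% of tested genes. An NF-Y box together with a CHR stood in 19 of 25 mitotic promoters (76.0%) and 0 of 12 replication promoters, against 7.72%. Over all 27457 promoters of the table the shares were 37.7% for NF-Y, 27.9% for the CHR, 7.97% for E2F and 11.1% for NF-Y with a CHR. Matches of different kinds overlapped in 3 member promoters. Melk and Tk1 held none of these letters. A match is a string of letters and was not tested for binding.

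Promoters of 2 genes of each class follow in the direction of transcription, 5′ to 3′, with the matched letters (on either strand) in capitals. The first pair belongs to mitotic genes that rose at both doses, and the second to replication genes that passed on the deposited scale alone. Ccnb1 lies at chr2:33655176-33655475 and Cdc20 at chr5:137255750-137256049, both on the minus strand. Mcm6 lies at chr13:42404303-42404602 on the minus strand and Mcm5 at chr19:13488563-13488862 on the plus strand.
Ccnb1: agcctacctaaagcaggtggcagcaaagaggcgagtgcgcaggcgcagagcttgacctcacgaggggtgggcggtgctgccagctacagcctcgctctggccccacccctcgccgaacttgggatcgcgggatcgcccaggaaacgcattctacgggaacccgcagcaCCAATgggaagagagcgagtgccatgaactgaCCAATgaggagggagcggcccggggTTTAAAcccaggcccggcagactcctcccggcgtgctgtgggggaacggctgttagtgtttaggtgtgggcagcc
Cdc20: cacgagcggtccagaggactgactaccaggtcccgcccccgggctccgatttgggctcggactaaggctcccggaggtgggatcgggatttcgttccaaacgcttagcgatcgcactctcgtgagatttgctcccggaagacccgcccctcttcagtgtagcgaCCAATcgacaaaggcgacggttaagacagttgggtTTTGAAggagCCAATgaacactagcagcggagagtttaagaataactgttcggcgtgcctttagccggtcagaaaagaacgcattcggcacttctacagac
Mcm6: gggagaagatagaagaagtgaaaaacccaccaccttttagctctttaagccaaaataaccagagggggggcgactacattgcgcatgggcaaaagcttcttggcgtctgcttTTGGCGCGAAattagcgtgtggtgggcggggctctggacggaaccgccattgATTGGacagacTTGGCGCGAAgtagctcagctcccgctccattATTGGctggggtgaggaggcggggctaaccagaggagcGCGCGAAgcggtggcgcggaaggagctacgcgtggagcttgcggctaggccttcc
Mcm5: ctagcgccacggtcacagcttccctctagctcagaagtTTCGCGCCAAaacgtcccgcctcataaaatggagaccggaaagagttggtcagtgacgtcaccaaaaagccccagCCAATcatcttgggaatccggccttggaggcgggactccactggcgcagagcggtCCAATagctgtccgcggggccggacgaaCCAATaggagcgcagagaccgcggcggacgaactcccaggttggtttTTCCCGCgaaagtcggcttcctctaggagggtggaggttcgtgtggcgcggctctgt
The mitotic pair carries CCAAT boxes in the forward direction and a CHR. The CHR is TTTAAA in Ccnb1, which reads the same on both strands, and forward TTTGAA in Cdc20. The replication pair carries E2F letters and CCAAT boxes (read as ATTGG on the reverse strand in Mcm6) and no CHR.

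**Figure D2:**
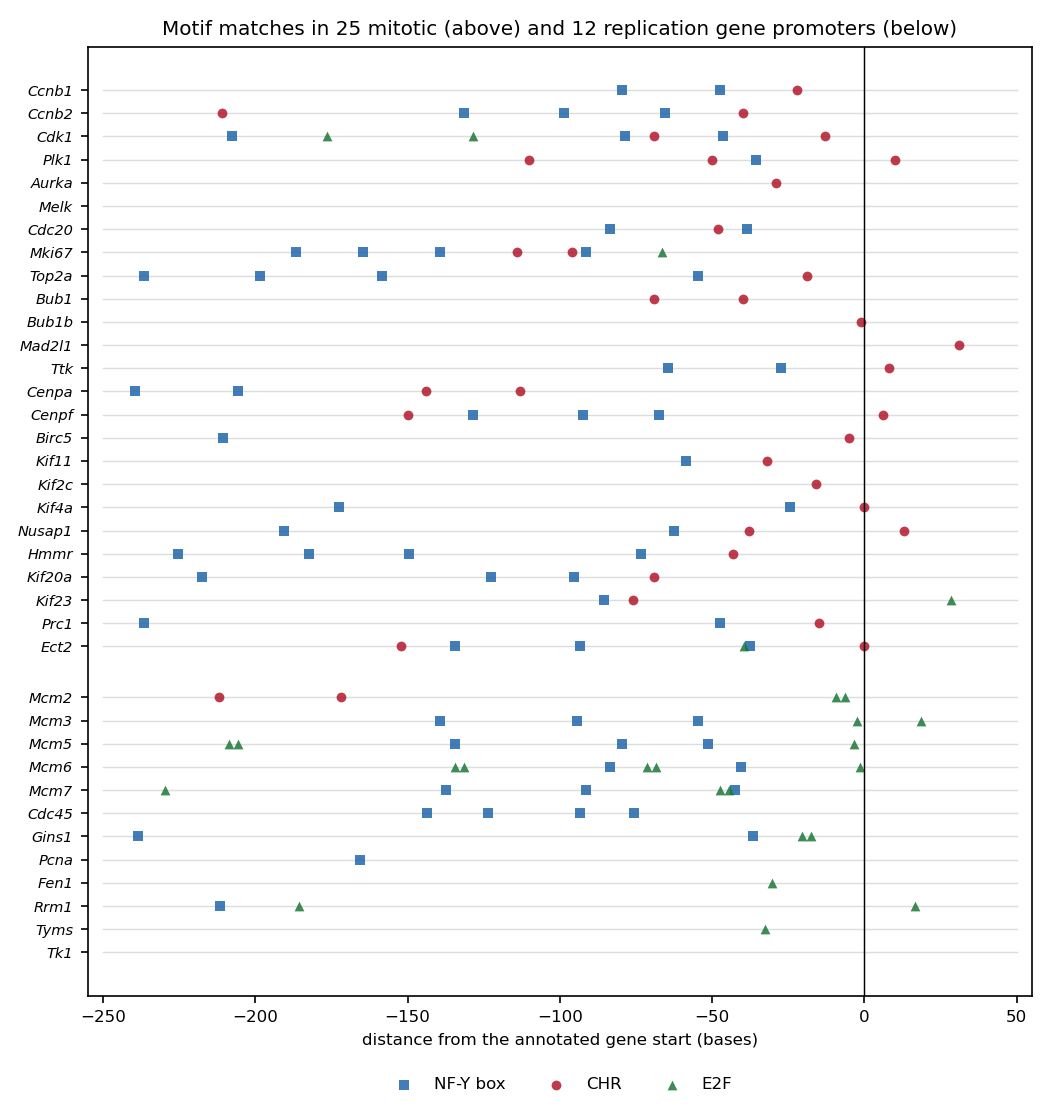
Positions of the NF-Y, CHR and E2F letters in the 37 member promoters, as bases from the annotated gene start (0) along a window of 250 bases before to 50 after it, one row per gene, mitotic genes apart from replication genes. CHR marks fill 24 of the 25 mitotic rows and 1 of the 12 replication rows, and E2F marks fill 4 and 9.

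Of the 8 genes of mitotic entry, 7 rose at 1 mg/kg and all 8 at 10 mg/kg. The cyclins bind and activate the kinase Cdk1. The signal of Ccnb1, the cyclin of mitotic entry, was 2.46 to 4.62 (median 3.11) with vehicle, 2.37 to 3.46 (median 2.70) at 0.1 mg/kg, 4.75 to 6.29 (median 5.68) at 1 mg/kg and 4.26 to 6.54 (median 5.59) at 10 mg/kg. Its log2 change was 2.25 ± 0.25 (SE) at 1 mg/kg (adjusted p = 3.2e-09) and 2.42 ± 0.25 at 10 mg/kg (1.14e-10). All 10 rats at 1 mg/kg and 9 of 10 at 10 mg/kg were above the highest vehicle rat, and after quantile normalization 7 and 9 were. Ccnb2, the second B-type cyclin, was 2.94 to 5.36 (median 4.06) with vehicle, 2.69 to 4.61 (median 3.88) at 0.1 mg/kg, 5.56 to 7.15 (median 6.42) at 1 mg/kg and 6.07 to 7.55 (median 6.92) at 10 mg/kg. It changed by 2.25 ± 0.26 at 1 mg/kg (adjusted p = 7.71e-09) and 2.67 ± 0.26 at 10 mg/kg (2.35e-11). At 10 mg/kg its rats lay clear of vehicle on both scales. For Ccna2, the cyclin that acts in S phase and in early mitosis, the values were 2.36 to 3.91 (median 2.53) with vehicle, 2.01 to 2.97 (median 2.54) at 0.1 mg/kg, 3.99 to 5.34 (median 4.59) at 1 mg/kg and 3.98 to 5.78 (median 4.81) at 10 mg/kg. Its changes were 1.83 ± 0.20 and 2.08 ± 0.20 at the 2 higher doses, and every rat of both was above every vehicle rat, or 9 of 10 after quantile normalization. Cdk1 itself was 3.30 to 5.73 (median 4.71) with vehicle, 3.13 to 5.33 (median 4.51) at 0.1 mg/kg, 6.04 to 7.37 (median 6.53) at 1 mg/kg and 5.73 to 7.38 (median 7.0) at 10 mg/kg, a change of 1.77 ± 0.25 at 1 mg/kg, where the groups were apart on both scales, and of 2.12 ± 0.25 at 10 mg/kg, where 1 rat reached the vehicle range.

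Plk1, a kinase of centrosome maturation and spindle assembly, was 2.32 to 3.36 (median 2.61) with vehicle, 2.41 to 2.98 (median 2.68) at 0.1 mg/kg, 3.29 to 4.50 (median 3.78) at 1 mg/kg and 2.87 to 4.60 (median 3.91) at 10 mg/kg. Aurka, which builds the spindle poles, was 3.67 to 4.88 (median 4.07) with vehicle, 3.36 to 4.70 (median 4.07) at 0.1 mg/kg, 4.98 to 6.18 (median 5.54) at 1 mg/kg and 4.35 to 6.02 (median 5.49) at 10 mg/kg. Their log2 changes were 1.06 ± 0.19 and 1.23 ± 0.19 at 1 mg/kg and 1.0 ± 0.19 and 1.06 ± 0.19 at 10 mg/kg. For each, 7 of 10 rats at 10 mg/kg were above the highest vehicle rat, or 6 after quantile normalization. Foxm1, which encodes the forkhead factor of the mitotic program, was 2.12 to 3.13 (median 2.52) with vehicle, 2.25 to 2.81 (median 2.39) at 0.1 mg/kg, 2.74 to 3.69 (median 3.26) at 1 mg/kg and 3.06 to 4.02 (median 3.38) at 10 mg/kg. It rose by 0.62 ± 0.12 at 1 mg/kg (adjusted p = 9.49e-05) and 0.81 ± 0.12 at 10 mg/kg (4.35e-07), a smaller change with overlap: 6 and 8 of 10 rats were above the highest vehicle rat. After quantile normalization 2 and 6 were. Melk, a kinase of the same program, differed from the others in dose. It was 1.80 to 2.23 (median 2.02) with vehicle, 1.79 to 2.27 (median 2.0) at 0.1 mg/kg, 1.81 to 3.22 (median 2.09) at 1 mg/kg and 2.20 to 3.55 (median 2.90) at 10 mg/kg, with a change of 0.22 ± 0.13 at 1 mg/kg (adjusted p = 0.174) and 0.91 ± 0.13 at 10 mg/kg (2.8e-07), and it alone of these 8 genes passed between 1 and 10 mg/kg (0.69 ± 0.13, adjusted p = 0.000158).

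Cdc20 activates the anaphase-promoting complex, and Ube2c is the enzyme that hands it ubiquitin, so that securin and the cyclins are destroyed. The signal of Cdc20 was 2.40 to 4.30 (median 3.20) with vehicle, 2.03 to 4.11 (median 2.97) at 0.1 mg/kg, 4.65 to 6.50 (median 5.42) at 1 mg/kg and 4.85 to 6.44 (median 5.79) at 10 mg/kg. Both higher doses were apart from vehicle on both scales, with changes of 2.16 ± 0.26 and 2.35 ± 0.26 (adjusted p = 2.76e-08 and 9.51e-10). Ube2c was 2.97 to 5.68 (median 4.50) with vehicle, 3.24 to 5.43 (median 4.66) at 0.1 mg/kg, 5.80 to 7.11 (median 6.27) at 1 mg/kg and 5.17 to 7.07 (median 6.70) at 10 mg/kg. It had one of the widest spreads among vehicle rats, and its changes were 1.71 ± 0.28 (adjusted p = 5.9e-06) and 1.78 ± 0.28 (9.8e-07). At these doses 10 and 9 of 10 rats were above the highest vehicle rat, or 8 and 8 after quantile normalization.

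**Figure D3:**
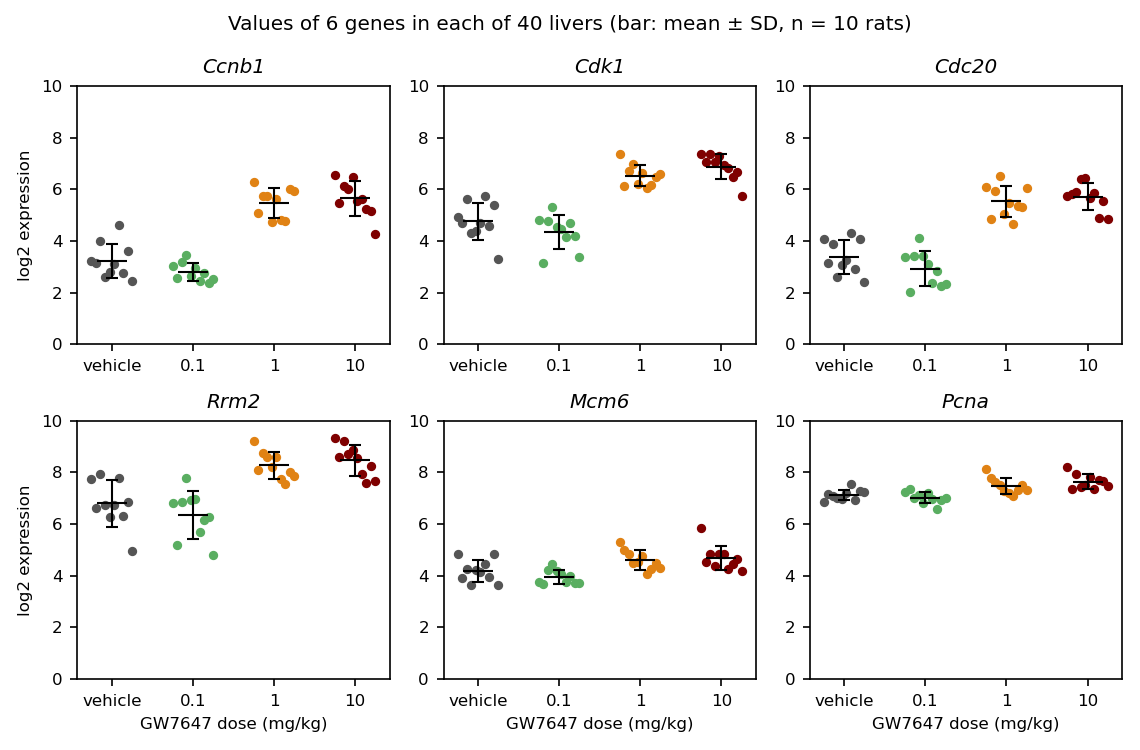
Log2 signal (vertical) of each of the 40 livers for Ccnb1, Cdk1 and Cdc20 in the upper row and Rrm2, Mcm6 and Pcna in the lower row, by group of 10 rats, with lines for the mean and SD. Cdc20 at 1 and 10 mg/kg lies clear of vehicle, Rrm2 overlaps it in 3 of 10 rats at each of these doses, and Mcm6 overlaps it in most rats.

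Mki67, the Ki-67 protein that coats mitotic chromosomes and the standard histological marker of cycling cells, lay below the array median with vehicle: 1.68 to 2.26 (median 1.80) with vehicle, 1.43 to 1.97 (median 1.73) at 0.1 mg/kg, 2.03 to 3.11 (median 2.21) at 1 mg/kg and 1.82 to 3.36 (median 2.73) at 10 mg/kg. It rose by 0.51 ± 0.14 at 1 mg/kg (adjusted p = 0.00313, and 0.0399 after quantile normalization) and 0.79 ± 0.14 at 10 mg/kg. At 1 mg/kg only 3 of 10 rats exceeded the highest vehicle rat, at 10 mg/kg 8 did, or 3 and 7 after quantile normalization. The call at 1 mg/kg was lost after quantile normalization without any one of 10 arrays (vehicle rats 2, 3, 4, 5, 6, 8 or 9, or 1 mg/kg rats 1, 4 or 10), with adjusted p-values of 0.0506 to 0.0973. Top2a, the topoisomerase that untangles sister chromatids, was 1.89 to 3.03 (median 2.51) with vehicle, 1.87 to 3.37 (median 2.21) at 0.1 mg/kg, 2.72 to 5.22 (median 4.01) at 1 mg/kg and 2.79 to 4.94 (median 4.16) at 10 mg/kg. Its changes were 1.56 ± 0.25 and 1.54 ± 0.25, and 9 of 10 rats at each dose were above the highest vehicle rat.

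Of the 6 kinetochore and checkpoint genes, 5 rose at 1 mg/kg and 4 at 10 mg/kg. Their median log2 changes were 0.53 and 0.63. Bub1b, the checkpoint protein BUBR1, was 2.08 to 2.73 (median 2.37) with vehicle, 1.81 to 2.67 (median 2.29) at 0.1 mg/kg, 2.49 to 3.43 (median 2.88) at 1 mg/kg and 2.75 to 3.54 (median 3.0) at 10 mg/kg. It changed by 0.51 ± 0.11 and 0.63 ± 0.11, and all 10 rats at 10 mg/kg were above the vehicle range on the deposited scale but 5 after quantile normalization. Mad2l1, which holds Cdc20 inactive until chromosomes are attached, was 2.26 to 2.76 (median 2.58) with vehicle, 2.05 to 2.75 (median 2.46) at 0.1 mg/kg, 2.84 to 3.57 (median 3.27) at 1 mg/kg and 3.33 to 3.98 (median 3.68) at 10 mg/kg. Its change of 0.71 ± 0.09 at 1 mg/kg and 1.08 ± 0.09 at 10 mg/kg (adjusted p = 1.06e-12) came with the smallest SD of the mitotic genes at 10 mg/kg (0.20), and at that dose no rat overlapped vehicle on either scale. Bub1, the checkpoint kinase, rose by 0.68 ± 0.19 and 0.85 ± 0.19. The call of Bub1 at 1 mg/kg was lost after quantile normalization without rat 1 or rat 10 of that dose (adjusted p = 0.0513 to 0.0616). Ttk, the kinase MPS1, rose by 0.55 ± 0.14 and 0.63 ± 0.14, and lost its call at 10 mg/kg without rat 3 of that group (adjusted p = 0.0604). Cenpf, a kinetochore protein of late G2, rose by 0.48 ± 0.11 at 1 mg/kg. At 10 mg/kg its change of 0.49 ± 0.11 missed the threshold after quantile normalization (0.23, adjusted p = 0.0629), and it passed without vehicle rat 7 or without 10 mg/kg rats 8 or 10 (0.0244 to 0.0493). Cenpa, the centromeric histone H3, stood apart from its group: its changes were 0.09 ± 0.09 and -0.11 ± 0.09, and after quantile normalization the second was -0.37 (adjusted p = 0.000979), a lower level on that scale alone.

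Both genes of the chromosomal passenger complex that are among the 45 members rose at both doses. The complex corrects faulty attachments and starts cytokinesis. Its kinase Aurkb was 2.65 to 3.88 (median 3.12) with vehicle, 2.51 to 3.72 (median 3.14) at 0.1 mg/kg, 4.14 to 5.16 (median 4.62) at 1 mg/kg and 3.96 to 5.0 (median 4.67) at 10 mg/kg. All rats of the 2 higher doses exceeded the highest vehicle rat. After quantile normalization all still did at 1 mg/kg and 8 of 10 did at 10 mg/kg. The change of Aurkb was 1.37 ± 0.17 at 1 mg/kg (adjusted p = 2.54e-08) and 1.39 ± 0.17 at 10 mg/kg. Birc5, which encodes survivin, was 2.34 to 3.85 (median 2.92) with vehicle, 2.10 to 3.29 (median 2.76) at 0.1 mg/kg, 3.47 to 4.76 (median 4.09) at 1 mg/kg and 3.38 to 5.09 (median 4.37) at 10 mg/kg. It changed by 1.15 ± 0.20 and 1.37 ± 0.20, and 7 and 8 of 10 rats lay above vehicle.

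Of the 5 spindle motor and assembly genes, 4 rose at each dose. Kif11, the motor that pushes spindle poles apart, was 1.71 to 2.73 (median 2.07) with vehicle, 2.02 to 2.71 (median 2.06) at 0.1 mg/kg, 2.20 to 3.13 (median 2.58) at 1 mg/kg and 2.69 to 3.69 (median 3.02) at 10 mg/kg. Its change was 0.46 ± 0.12 at 1 mg/kg (adjusted p = 0.00212, and 0.0381 after quantile normalization) and 0.94 ± 0.12 at 10 mg/kg (1.7e-08). The first of these calls was lost after quantile normalization without any one of 10 arrays (vehicle rats 1, 2, 4, 8, 9 or 10, or 1 mg/kg rats 1, 3, 4 or 9), with adjusted p-values of 0.0516 to 0.0836. Kif2c, a microtubule depolymerase, rose by 1.28 ± 0.19 and 1.17 ± 0.19, and Nusap1, which bundles spindle microtubules, by 1.30 ± 0.25 and 1.62 ± 0.25. Another probe set of Kif2c, about as bright with vehicle, averaged only 0.09 higher at 1 mg/kg and 0.03 higher at 10 mg/kg. Hmmr, a spindle pole protein, rose by 0.60 ± 0.17 and 0.77 ± 0.17. Its call at 1 mg/kg was lost after quantile normalization without any one of 11 arrays (vehicle rats 1 to 6 or 10, or 1 mg/kg rats 1, 2, 6 or 10), at adjusted p-values of 0.0533 to 0.0973. Kif4a, a chromosome motor, changed by -0.05 ± 0.10 at 1 mg/kg and 0.35 ± 0.10 at 10 mg/kg, where it did not pass after quantile normalization (0.11, adjusted p = 0.355).

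Of the 5 genes of the central spindle and of cytokinesis, 4 rose at each dose. Kif20a, the motor that carries the passenger complex to the midzone, was 2.43 to 4.82 (median 3.75) with vehicle, 2.60 to 4.04 (median 3.60) at 0.1 mg/kg, 4.74 to 6.30 (median 5.61) at 1 mg/kg and 5.12 to 6.78 (median 5.94) at 10 mg/kg. It changed by 1.74 ± 0.24 and 2.16 ± 0.24 (adjusted p = 8.34e-10), and at 10 mg/kg its rats were apart from vehicle on both scales. Racgap1, a subunit of centralspindlin, was 2.24 to 4.07 (median 2.97) with vehicle, 1.90 to 3.32 (median 2.53) at 0.1 mg/kg, 3.87 to 5.26 (median 4.40) at 1 mg/kg and 3.30 to 5.24 (median 4.54) at 10 mg/kg. Its changes were 1.49 ± 0.24 and 1.37 ± 0.24. Prc1, which bundles the midzone, rose by 1.29 ± 0.20 and 1.52 ± 0.20, and Ect2, the exchange factor that starts furrow ingression, by 1.67 ± 0.25 and 1.70 ± 0.25. Kif23, the motor subunit of centralspindlin, changed by 0.11 ± 0.13 and 0.38 ± 0.13 in the probe set used and did not pass on both scales. Its other, dimmer probe set averaged 0.58 higher at 1 mg/kg and 0.70 higher at 10 mg/kg.

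The 6 subunits Mcm2 to Mcm7 form the helicase that is loaded on origins and unwinds DNA. Mcm7 was 6.27 to 6.96 (median 6.78) with vehicle, 6.26 to 6.96 (median 6.60) at 0.1 mg/kg, 6.97 to 7.57 (median 7.13) at 1 mg/kg and 6.91 to 7.62 (median 7.18) at 10 mg/kg. It rose at 1 mg/kg by 0.54 ± 0.10 (adjusted p = 2.07e-05, and 0.038 after quantile normalization), a call lost without any one of 7 arrays (vehicle rats 4, 5, 8 or 10, or 1 mg/kg rats 1, 3 or 4) at 0.0512 to 0.0875. At 10 mg/kg its change of 0.56 ± 0.10 missed the threshold after quantile normalization (0.0524), and passed without any one of 8 arrays (vehicle rats 1, 2, 3, 6 or 7, or 10 mg/kg rats 1, 6 or 10) at 0.0268 to 0.0486. Mcm3 was 2.05 to 2.68 (median 2.51) with vehicle, 1.88 to 2.85 (median 2.33) at 0.1 mg/kg, 2.79 to 3.62 (median 2.96) at 1 mg/kg and 2.54 to 3.01 (median 2.76) at 10 mg/kg. It rose by 0.60 ± 0.10 at 1 mg/kg (adjusted p = 1.28e-05), where all 10 rats were above the vehicle range on the deposited scale, while the change of 0.37 ± 0.10 at 10 mg/kg was 0.13 after quantile normalization (adjusted p = 0.302).

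The other 4 helicase subunits did not pass on both scales at any dose. Mcm2 was 4.20 to 5.33 (median 4.46) with vehicle, 4.0 to 4.75 (median 4.45) at 0.1 mg/kg, 4.50 to 5.14 (median 4.73) at 1 mg/kg and 4.10 to 5.14 (median 4.81) at 10 mg/kg. Mcm4 was 2.68 to 3.94 (median 3.23) with vehicle, 2.22 to 3.88 (median 3.21) at 0.1 mg/kg, 3.25 to 4.14 (median 3.72) at 1 mg/kg and 3.38 to 5.14 (median 3.70) at 10 mg/kg. Mcm5 was 3.27 to 4.50 (median 3.79) with vehicle, 3.15 to 3.88 (median 3.62) at 0.1 mg/kg, 3.90 to 4.65 (median 4.11) at 1 mg/kg and 3.73 to 4.68 (median 4.09) at 10 mg/kg. In all 3 each dose overlapped vehicle, while for Mcm5 the rats at 1 mg/kg lay above those at 0.1 mg/kg on the deposited scale. Mcm6 was 3.62 to 4.85 (median 4.18) with vehicle, 3.69 to 4.45 (median 3.88) at 0.1 mg/kg, 4.06 to 5.32 (median 4.52) at 1 mg/kg and 4.17 to 5.85 (median 4.60) at 10 mg/kg, and rat 1 of the 10 mg/kg group alone carried its highest value. The deposited log2 changes of Mcm2, Mcm4, Mcm5 and Mcm6 were 0.21 ± 0.12, 0.46 ± 0.19, 0.36 ± 0.14 and 0.42 ± 0.17 at 1 mg/kg, and 0.20 ± 0.12, 0.56 ± 0.19, 0.38 ± 0.14 and 0.49 ± 0.17 at 10 mg/kg. After quantile normalization they were between -0.06 (Mcm2) and 0.25 (Mcm4) at 1 mg/kg and between -0.06 (Mcm2) and 0.34 (Mcm4) at 10 mg/kg, with adjusted p-values of 0.134 (Mcm4) or more.

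Origin firing turns the loaded helicase into a moving one. Ccne2, a cyclin of the G1 to S transition, was 1.60 to 2.29 (median 1.83) with vehicle, 1.56 to 2.18 (median 1.76) at 0.1 mg/kg, 1.78 to 2.43 (median 2.07) at 1 mg/kg and 2.12 to 2.93 (median 2.61) at 10 mg/kg. At 1 mg/kg it missed the threshold (0.22 ± 0.09, adjusted p = 0.0534) and rose by 0.69 ± 0.09 at 10 mg/kg (7.73e-08). Gins1, a subunit of the active helicase, rose by 0.44 ± 0.12 at 1 mg/kg and 0.76 ± 0.12 at 10 mg/kg. The call of Gins1 at 1 mg/kg (adjusted p = 0.0474 after quantile normalization) was lost without any one of 12 arrays (vehicle rats 2, 3, 4, 5, 6, 8 or 10, or 1 mg/kg rats 1, 2, 3, 6 or 8) at 0.055 to 0.107. Cdc45, the third part of that helicase, was 2.12 to 3.17 (median 2.66) with vehicle, 1.90 to 3.36 (median 2.78) at 0.1 mg/kg, 2.56 to 3.40 (median 2.89) at 1 mg/kg and 2.31 to 3.49 (median 2.98) at 10 mg/kg. Its changes of 0.32 ± 0.15 and 0.29 ± 0.15 passed on neither scale. A dimmer probe set of Cdc45 averaged 0.55 higher at 1 mg/kg and 0.65 higher at 10 mg/kg.

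Neither the clamp nor the flap nuclease passed on both scales. Pcna, the sliding clamp that tethers the polymerases, was 6.87 to 7.54 (median 7.13) with vehicle, 6.60 to 7.34 (median 7.01) at 0.1 mg/kg, 7.10 to 8.13 (median 7.41) at 1 mg/kg and 7.38 to 8.21 (median 7.58) at 10 mg/kg. It changed by 0.34 ± 0.11 and 0.51 ± 0.11 on the deposited scale and by 0.10 and 0.20 after quantile normalization (adjusted p = 0.543 and 0.121). Fen1, which trims Okazaki fragments, was 2.72 to 3.70 (median 3.21) with vehicle, 2.57 to 3.88 (median 3.0) at 0.1 mg/kg, 3.17 to 3.63 (median 3.28) at 1 mg/kg and 3.11 to 4.04 (median 3.59) at 10 mg/kg. Its changes were 0.13 ± 0.13 and 0.31 ± 0.13, or -0.07 and 0.07 after quantile normalization.

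Of the 4 genes of nucleotide supply 3 rose at 1 mg/kg and all 4 at 10 mg/kg. Rrm2, the regulated subunit of ribonucleotide reductase, was 4.95 to 7.95 (median 6.74) with vehicle, 4.79 to 7.80 (median 6.56) at 0.1 mg/kg, 7.56 to 9.23 (median 8.17) at 1 mg/kg and 7.58 to 9.32 (median 8.58) at 10 mg/kg. Its change was 1.47 ± 0.32 at 1 mg/kg (adjusted p = 0.000325) and 1.67 ± 0.32 at 10 mg/kg (2.49e-05). It had the widest spread of all 45 genes among vehicle rats (SD 0.89), and 7 of 10 rats at 1 mg/kg and 7 at 10 mg/kg exceeded the highest vehicle rat. After quantile normalization 5 and 6 did. Tk1, the thymidine kinase of the salvage pathway, was 4.79 to 6.02 (median 5.34) with vehicle, 4.84 to 5.79 (median 5.28) at 0.1 mg/kg, 5.56 to 6.65 (median 6.41) at 1 mg/kg and 5.72 to 7.02 (median 6.52) at 10 mg/kg. It rose by 0.96 ± 0.15 and 1.11 ± 0.15, with 9 and 9 of 10 rats above the vehicle range, or 6 and 8 after quantile normalization. Another probe set of Tk1, about as bright, averaged 0.67 higher at 1 mg/kg and 0.49 higher at 10 mg/kg. Tyms, which makes thymidylate, was 2.01 to 2.45 (median 2.18) with vehicle, 2.0 to 2.52 (median 2.15) at 0.1 mg/kg, 2.30 to 3.14 (median 2.71) at 1 mg/kg and 2.81 to 3.80 (median 3.20) at 10 mg/kg. It rose by 0.49 ± 0.10 at 1 mg/kg and 1.01 ± 0.10 at 10 mg/kg (adjusted p = 3.98e-11), where it was the only replication gene with no overlap with vehicle on both scales. Rrm1, the large subunit of the reductase, was 2.47 to 3.48 (median 2.92) with vehicle, 2.19 to 3.06 (median 2.84) at 0.1 mg/kg, 2.60 to 4.30 (median 3.19) at 1 mg/kg and 2.93 to 4.50 (median 3.90) at 10 mg/kg. At 1 mg/kg its change of 0.30 ± 0.17 did not pass (adjusted p = 0.148), and at 10 mg/kg it rose by 0.87 ± 0.17 (2.02e-05).

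At 0.1 mg/kg 0 of 45 members passed in either direction in limma, where 0.0819% of all genes rose and 0.00744% fell on both scales. The log2 changes lay between -0.47 (Racgap1) and 0.02 (Kif11). Their median was -0.13, or -0.10 after quantile normalization, beside -0.03 and 0.00 for all genes. As deposited, 44 of 45 members were below 0, as were 8343 of all 13437 genes. Quantile normalization left 44 members and 6565 genes below 0. The same rats tended to hold the extremes of many members, so the 45 signs are not separate observations. At an unadjusted p under 0.05 there was 1 member (2 after quantile normalization). The largest differences were those of Racgap1 (-0.47 ± 0.24), Rrm2 (-0.45 ± 0.32), Ccnb2 (-0.44 ± 0.26) and Cdc20 (-0.44 ± 0.26), all with an adjusted p of 1. Without the 2 arrays of low upper quartile in that group the counts were again 0 and 0. In most members, Racgap1, Ccnb2 and Ccnb1 among them, no rat at 0.1 mg/kg exceeded the highest vehicle rat. That vehicle rat was rat 7 in 25 of 30 mitotic genes.

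Between 0.1 and 1 mg/kg 25 of 30 mitotic genes and 6 of 15 replication genes rose, against 10.5% of all genes, and 0 fell, against 2.95%. On the deposited scale alone 27 and 13 were higher, against 45.4%. The median log2 change of the mitotic genes was 1.38, or 1.07 after quantile normalization, and that of the replication genes was 0.52, or 0.31. The rats of the 2 doses did not overlap on both scales in 11 members, all mitotic, against 1.06% of all genes. These comprise Ccna2, Ccnb1, Ccnb2, Cdk1, Plk1, Aurka, Cdc20, Ube2c, Kif2c, Racgap1 and Ect2, and Ccnb2 changed most (2.69 ± 0.26, adjusted p = 1.42e-10). Against vehicle the genes with no overlap were 3 at 1 mg/kg (Cdk1, Cdc20 and Aurkb, against 1.3% of all genes) and 5 at 10 mg/kg (Ccnb2, Cdc20, Mad2l1, Kif20a and Tyms, against 3.63%). Without the 2 arrays of low upper quartile in the 0.1 mg/kg group the counts were 24 and 5. Single arrays moved 5 of the calls between 0.1 and 1 mg/kg. Gins1 was lost after quantile normalization without 0.1 mg/kg rats 7, 8, 9 or 10 or 1 mg/kg rats 1, 2, 3 or 6 (adjusted p = 0.0503 to 0.0891), Mcm7 without 0.1 mg/kg rat 10 or 1 mg/kg rats 1, 3 or 4 (0.0543 to 0.0587), and Hmmr without 1 mg/kg rats 1 or 10 (0.05 to 0.0518). Cenpa was gained without 0.1 mg/kg rats 1 or 7 or 1 mg/kg rat 2 (0.0371 to 0.0463), and Kif11 without 0.1 mg/kg rat 4 or 1 mg/kg rats 5 or 8 (0.0228 to 0.0486).

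Between 1 and 10 mg/kg 4 mitotic genes (Melk, Mad2l1, Kif11 and Kif4a) and 3 replication genes (Rrm1, Tyms and Ccne2) rose, against 8.55% of all genes, and 0 fell, against 5.98%. On the deposited scale alone 4 and 4 were higher, against 24.2%. Ccnb1 changed by 0.17 ± 0.25, Cdc20 by 0.19 ± 0.26 and Cdk1 by 0.35 ± 0.25 between these doses, and none of these 3 passed. The rising members changed by 0.69 ± 0.13 (Melk), 0.37 ± 0.09 (Mad2l1), 0.48 ± 0.12 (Kif11), 0.40 ± 0.10 (Kif4a), 0.58 ± 0.17 (Rrm1), 0.52 ± 0.10 (Tyms) and 0.46 ± 0.09 (Ccne2). With the 1 mg/kg group limited to rats 1 to 4, whose poly-A controls were lower, only Tyms passed on both scales (0.50, adjusted p = 0.00558, and 0.44 with 0.0287 after quantile normalization). Melk was then 0.37 (adjusted p = 0.135), Mad2l1 0.25 (0.134), Kif11 0.28 (0.244), Rrm1 0.41 (0.221) and Ccne2 0.32 (0.0854), and Kif4a, at 0.36 (0.0305), missed the threshold after quantile normalization (0.199). Without 1 mg/kg rat 8 alone the mitotic count was 2. Leaving out 1 mg/kg rat 8 or 10 mg/kg rats 2 or 4 ended the call of Kif11 after quantile normalization (0.0527 to 0.0607), and leaving out any one of 15 arrays ended that of Kif4a after quantile normalization (1 mg/kg rats 3 to 9, or 10 mg/kg rats 1 to 5, 7, 8 or 9, at 0.0502 to 0.0983). Cenpa was lower on both scales without 10 mg/kg rats 2 or 4 (adjusted p of 0.0375 to 0.0428 on the deposited scale).

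The spread between animals had a higher median in these genes than over all genes in each group. The median SD over 10 rats was 0.40, 0.35, 0.42 and 0.48 for mitotic genes with vehicle and at 0.1, 1 and 10 mg/kg, and 0.32, 0.27, 0.27 and 0.31 for replication genes. For all genes it was 0.19, 0.21, 0.20 and 0.21. Between 34 and 43 of the 45 genes had an SD above the all-gene median in each group. The widest was Rrm2 with vehicle (0.89) and at 0.1 mg/kg (0.92), then Ect2 at 1 mg/kg (0.79) and Top2a at 10 mg/kg (0.71). The SD of Rrm2 was 0.52 at 1 mg/kg and 0.61 at 10 mg/kg. A test of the spread in limma, on each rat's absolute distance from its group mean, called 0 of 45 members at each dose against vehicle on the deposited scale. At an unadjusted p under 0.05 there were 1, 4 and 4 members at 0.1, 1 and 10 mg/kg, or 1, 1 and 5 after quantile normalization, and the smallest adjusted p was 0.35. That test called 0%, 0.0521% and 0.0967% of all genes as more spread on the deposited scale, and 0.00744%, 0.00744% and 0.0372% as less spread. With 10 rats a group, 0 calls do not show that the spread of the members was equal between groups.

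**Figure D4:**
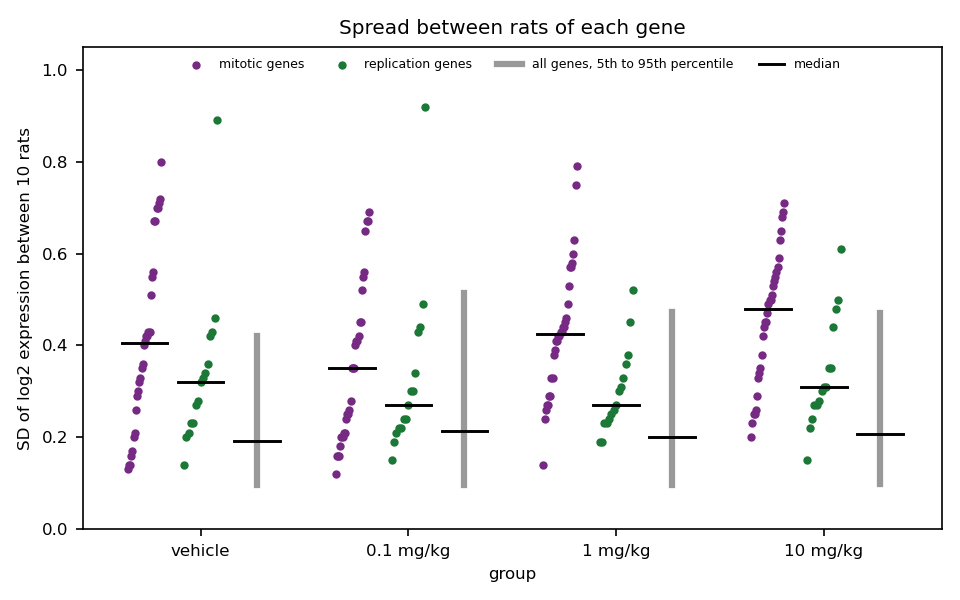
Standard deviation over 10 rats (log2 units) of each mitotic gene and each replication gene in the 4 groups, with a black line at each median and a grey bar for all genes from percentile 5 to percentile 95. Mitotic medians are 0.35 to 0.48 against 0.19 to 0.21 for all genes, and the highest point with vehicle and at 0.1 mg/kg is Rrm2.

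The same animals tended to hold the extremes. The mean of the 30 mitotic genes was 2.33 to 3.54 (median 2.77) with vehicle, 2.33 to 3.15 (2.68) at 0.1 mg/kg, 3.55 to 4.50 (3.99) at 1 mg/kg and 3.47 to 4.49 (4.14) at 10 mg/kg. The lowest rat at 1 mg/kg lay just above the highest vehicle rat (3.55 against 3.54) and the lowest at 10 mg/kg just below it (3.47). After quantile normalization both groups overlapped vehicle, with lowest rats at 3.44 and 3.32 against a highest vehicle rat at 3.61. The mean of the 15 replication genes was 3.55 to 4.27 (3.86) with vehicle, 3.51 to 4.16 (3.83) at 0.1 mg/kg, 4.12 to 4.92 (4.39) at 1 mg/kg and 4.33 to 5.04 (4.57) at 10 mg/kg, so that this mean overlapped vehicle at 1 mg/kg and not at 10 mg/kg. After quantile normalization it overlapped at 10 mg/kg as well, with the lowest rat at 4.18 against a highest vehicle rat at 4.34. Vehicle rat 7 had the highest mean of both classes in its group and the highest value in 25 of 30 mitotic genes and 5 of 15 replication genes. Rat 4 led at 0.1 mg/kg (16 of 30 and 7 of 15), and rat 1 at 1 mg/kg (14 of 30 and 10 of 15). At 10 mg/kg rat 1 had both highest means and 9 of the 15 replication genes, while the mitotic maxima were spread over 7 rats, with rat 4 first in 8 and rat 5 in 7. Rat 10 was lowest in both means with vehicle, at 0.1 mg/kg and at 10 mg/kg, which are 3 different animals of the same number. In the 1 mg/kg group the mitotic mean averaged 4.14 ± 0.34 in rats 1 to 4 and 3.81 ± 0.29 in rats 5 to 10, and the replication mean 4.60 ± 0.22 and 4.32 ± 0.12 (SD), beside poly-A controls of 5.46 and 6.72. The part of the poly-A controls in this difference was not tested.

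**Figure D5:**
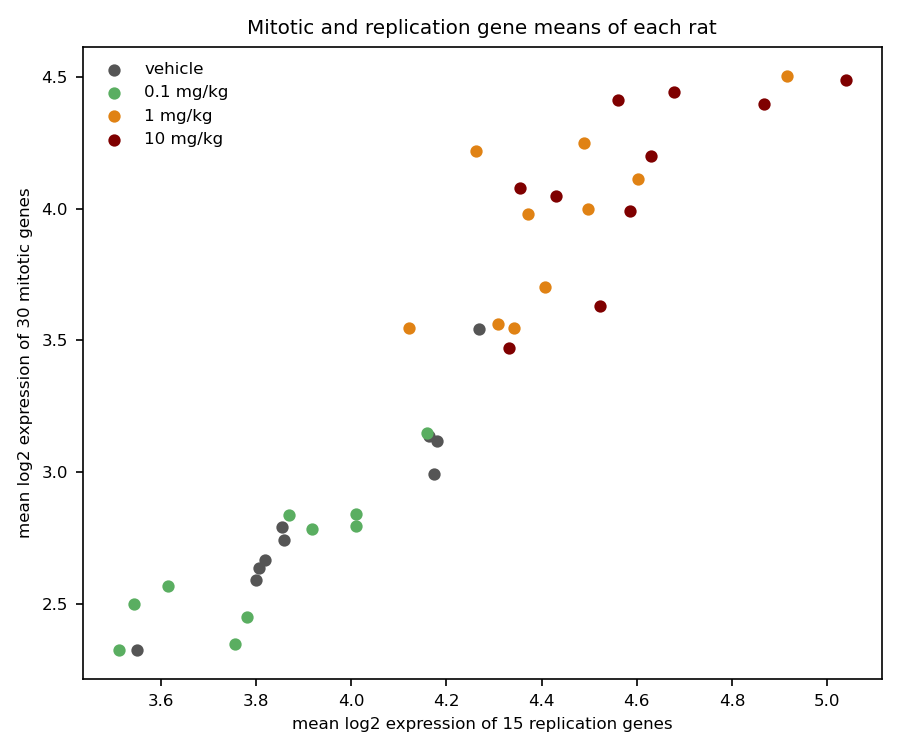
Mean log2 signal of the 30 mitotic genes (vertical) against that of the 15 replication genes (horizontal), one point per rat, coloured by group. The 1 and 10 mg/kg rats sit up and to the right of most vehicle and 0.1 mg/kg rats, and in each group the rat with the highest mitotic mean also has the highest replication mean.

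Within groups, 3 pairs of genes were followed over the 10 rats, which gives 12 relations over 4 groups. All 12 Pearson correlations were positive, and 10 had an adjusted p under 0.05 (permutation test, two-sided). Ccnb1 and Cdc20, both mitotic, gave r = 0.87 with vehicle (Spearman's rho 0.94, permutation p = 0.00027 and 0.0002, adjusted 0.00324 and 0.0024), and 0.88, 0.73 and 0.79 at 0.1, 1 and 10 mg/kg (rho 0.79, 0.65 and 0.77). Rrm2 and Mcm6, both of replication, gave r = 0.65, 0.80, 0.82 and 0.74 (rho 0.72, 0.79, 0.85 and 0.72), with adjusted permutation p-values of 0.0488, 0.0136, 0.0136 and 0.0136. Across the classes, Ccnb1 and Mcm6 gave r = 0.60, 0.78, 0.48 and 0.67 (rho 0.81, 0.73, 0.30 and 0.64), with adjusted permutation p-values of 0.0719, 0.0151, 0.162 and 0.0488. After the 2 rats farthest from the median of the first gene were left out, r ranged from 0.36 to 0.92 over 8 rats, and 3 of 12 relations passed (exact permutation test): Ccnb1 with Cdc20 with vehicle and at 10 mg/kg, and Ccnb1 with Mcm6 with vehicle. The other 8 of the 10 relations no longer passed with 8 rats. In 2 of them r was much lower without those rats (Ccnb1 with Mcm6, 0.39 at 0.1 mg/kg against 0.78 and 0.36 at 10 mg/kg against 0.67). In 3 it was about the same (Ccnb1 with Cdc20 at 1 mg/kg, 0.75 against 0.73, and Rrm2 with Mcm6, 0.77 against 0.80 at 0.1 mg/kg and 0.73 against 0.74 at 10 mg/kg), with an adjusted exact permutation p of 0.0537 each. After quantile normalization 6 of 12 passed. Correlations were not computed within rats 1 to 4 and rats 5 to 10 of the 1 mg/kg group, since the first holds too few animals.

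Of 50 further mitotic genes 27 rose at 1 mg/kg and 33 rose at 10 mg/kg, where 11.1% and 20.5% of all genes did. None of them fell on both scales, where 3.37% of all genes fell at 1 mg/kg and 7.69% at 10 mg/kg. Spc25, of the NDC80 complex at the kinetochore, rose by 2.08 ± 0.22 and 2.13 ± 0.22, and Pttg1, which encodes securin, by 2.01 ± 0.20 and 2.22 ± 0.20. Kif22, a motor of chromosome arms, rose by 1.65 ± 0.19 and 1.75 ± 0.19, Cenpw of the kinetochore by 1.60 ± 0.19 at 1 mg/kg, and Kifc1, a minus-end motor, by 1.85 ± 0.19 at 10 mg/kg. Of 32 further replication genes 6 rose and 1 fell at 1 mg/kg, and 12 rose and 0 fell at 10 mg/kg, beside the same shares of all genes. Gins4, another subunit of the active helicase, rose by 1.08 ± 0.14 and 1.24 ± 0.14, Dut, which removes dUTP, by 0.74 ± 0.10 and 1.09 ± 0.10, Pold2 of polymerase delta by 0.70 ± 0.10 and 0.90 ± 0.10, and the ligase Lig1 by 0.66 ± 0.09 and 0.90 ± 0.09. Of 14 genes for E2F, retinoblastoma family and MuvB regulators, Rbl1 (p107) rose at both doses (0.57 ± 0.12 and 0.66 ± 0.12) and Rb1 at 10 mg/kg (0.59 ± 0.12). E2f1, an activating E2F, changed by 0.09 ± 0.10 and 0.19 ± 0.10 and did not pass on either scale. The 1 and 2 of 14 regulators that rose at these doses are below the shares of all genes.

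Of the 7 hepatocyte markers 2 fell at 10 mg/kg on both scales: Hnf4a, a hepatocyte transcription factor, changed by -0.46 ± 0.12 (-0.74 after quantile normalization), and Cps1, an enzyme of the urea cycle, by -0.15 ± 0.06 (-0.36). After quantile normalization alone 5 of the 7 were lower at that dose, as were 3273 of all 13437 genes. The marker counts of this paragraph stand beside these shares of all genes on both scales. For 1 mg/kg, 3.37% fell and 11.1% rose. For 10 mg/kg, the shares were 7.69% and 20.5%. Among markers of other liver cells, macrophage genes moved the opposite way from the cell cycle genes. Of 9 Kupffer cell and macrophage markers 4 fell at 1 mg/kg and 8 at 10 mg/kg on both scales, and the mean of the list was 6.84 to 7.65 with vehicle, 6.98 to 7.70 at 0.1 mg/kg, 6.52 to 7.72 at 1 mg/kg and 6.04 to 7.16 at 10 mg/kg. None of 8 lymphocyte markers passed on both scales against vehicle, and their list mean lay between 2.09 and 2.48 in every rat. In each group 6 or 7 of the 8 were below the array median (Cd3e, Cd3d, Ms4a1, Nkg7 and Gzmb in all 4). Of 3 erythroid markers Alas2 and Klf1 rose at 10 mg/kg, where the list mean was 2.67 to 3.24 against 2.35 to 3.01 with vehicle. Of 6 bile duct markers Epcam rose and Spp1 fell at 1 mg/kg, and Epcam and Sox9 rose and Spp1 fell at 10 mg/kg, with list means of 2.85 to 3.39 and 2.90 to 3.51 against 2.83 to 3.35 with vehicle. Of 6 endothelial markers Kdr and Tek fell at both doses, of 8 stellate cell markers Col1a1 rose and Des fell at 10 mg/kg, and of 3 neutrophil markers Camp fell at both doses. The part of other cell types in the change of the cell cycle genes was not tested.

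Several members were dim or had more than 1 probe set. Of the mitotic genes 13 of 30, and of the replication genes 4 of 15, averaged below the array median with vehicle. Where a group mean of 5.0 or more was required, 8 mitotic genes remained (Ccnb1, Ccnb2, Cdk1, Aurka, Cdc20, Ube2c, Nusap1 and Kif20a) and 4 replication genes (Mcm7, Pcna, Rrm2 and Tk1). The 8 mitotic genes reached 5.0 only at 1 and 10 mg/kg, while the 4 replication genes did so in every group. The filter thus kept mitotic genes through the groups where they were high, and their larger changes are no separate support. The median log2 change of the genes kept was 1.75 for the mitotic and 0.75 for the replication genes at 1 mg/kg. At 10 mg/kg it was 2.14 and 0.84. Further probe sets of Ccnb1 (2.13 at 1 mg/kg and 2.23 at 10 mg/kg), Rrm2 (1.90 and 1.91) and Cdc20 (2.16 and 2.12) gave changes near or above those of the probe sets used. Other, dimmer ones gave less, such as those of Kif11 (0.28 and 0.22) and 3 of Cdc20 (0.09 to 0.25 and 0.30 to 0.36). The other probe set of Kif2c was about as bright with vehicle as the one used (2.34 against 2.31) and gave far less (0.09 and 0.03). A probe set of Tk1 about as bright with vehicle as the one used (5.60 against 5.40) also gave less (0.67 and 0.49). A dimmer one of Cdc45 gave more than the one used (0.55 and 0.65).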

How the data were processed

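Liver RNA of 40 rats was measured on 1 microarray per rat, with 10 rats in each of 4 groups taken from the sample labels. The values are log2 signals of 31139 probe sets, as deposited by the authors. The submitters' processing notes name GCRMA and Partek, and their versions and order are not given in the material used here. Array medians on the deposited scale shift between groups. Arrays give no read depth, and the number of rats limits the precision.

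Probe sets with 1 gene symbol (19062) were kept, those with several (573), with none (11407) and control probe sets (97) were left out, and symbols were updated through the Entrez ID where it was in the RefSeq table (18983). For each of 13437 genes 1 probe set was used, that of highest average signal, and 3985 genes had several. Group means were compared in limma 3.58.1 (R 4.3.3; lmFit and eBayes, 1 model for 4 groups, 36 residual degrees of freedom, two-sided, Benjamini-Hochberg over all genes), on the deposited values and after quantile normalization. All 5 comparisons share this model. The spread was tested in limma on absolute deviations from the group mean times the square root of n/(n-1). Correlations within groups used 100000 resamples (scipy 1.17.1; exact permutation with 8 rats) with Benjamini-Hochberg adjustment over 12 relations. The fits were tested on simulated data.

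The members and the lists of other genes were chosen with earlier results of these data known. Values in every group are given for the members set by the rule for named genes (the main cyclins, kinases, MCM and nucleotide genes) and for any other among the 5 largest changes of a comparison, and up to 4 genes are named from each list of other pathway genes at each dose. Promoters are RefSeq's for GRCr8. Alternatives were other probe set rules, scales, filters, priors, array weights, a replicate block, a minimum fold and leaving out each array. Leaving out the 2 arrays of low upper quartile and the poly-A level as a covariate were chosen after seeing the data.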

Additional observations from a re-analysis of the deposited data

Results flagged for a closer look

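Single rats stood apart from the other 9 of their group in 20 of the 188 combinations of gene (or class mean) and group that were examined, by a gap larger than Dixon's critical value of 0.466 of the group's range. Chance alone flags about 1 in 20 such combinations. The rats that led the class means recur among them.

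In the vehicle group rat 7 was alone at the top for Mki67 (2.26, against 1.68 to 1.96 in the other rats), Ttk (2.39), Hmmr (2.95) and Ect2 (3.29). At 0.1 mg/kg rat 4 was alone at the top for Top2a (3.37, against 1.87 to 2.36), Bub1 (2.48) and Kif11 (2.71), and rat 1 for Melk (2.27). At 1 mg/kg rat 1 stood above the others for Ttk (3.26), Mcm3 (3.62) and Rrm1 (4.30), rat 10 for Kif4a (2.90), and rat 7 stood below them for Tk1 (5.56, against 6.11 to 6.65). Rats 10 and 7 had the largest actin differences of that group (4.421 and 3.955, against a median of 2.94). The part of RNA quality in these values was not tested. At 10 mg/kg rat 1 stood above the others for Bub1 (3.99), Mcm4 (5.14, against 3.38 to 4.07), Mcm6 (5.85, against 4.17 to 4.84) and Gins1 (3.54), rat 3 for Ttk (3.15), and rat 2 stood below them for Kif23 (1.97) and Mcm2 (4.10). Of the members named, Ttk was set apart in 3 of its 4 groups.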

How the results depend on the processing

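No member that passed, before or after a change of setting, changed its sign with it. Members that did not pass could: after quantile normalization Mcm2, Fen1, Cenpa and Kif23 were below 0 at 1 mg/kg (-0.06, -0.07, -0.03 and -0.01) and Mcm2 at 10 mg/kg (-0.06), all above 0 as deposited. Of 291 recomputed counts and correlations, beside those that left out 1 array, 59 moved past a limit of 1.5 times for counts or across the threshold for correlations. Requiring a group mean of 5.0 left 8 mitotic and 4 replication genes. By fewer genes tested, the counts became 8 and 4 on the deposited scale and 8 and 3 on both scales. That held at 1 mg/kg, at 10 mg/kg and between 0.1 and 1 mg/kg, and between 1 and 10 mg/kg the counts were 0. The 8 mitotic genes reached 5.0 only at 1 and 10 mg/kg, so their count after this filter is no separate support. A minimum change of 1.2-fold (limma's treat) left, on both scales, 15 mitotic and 0 replication genes at 1 mg/kg, 3 replication genes at 10 mg/kg, 1 between 0.1 and 1 mg/kg, and 0 of either class between 1 and 10 mg/kg. On the deposited scale it left 4, 7, 4 and 0 replication genes in these comparisons, and 0 mitotic genes in the last. The replication counts of the deposited scale (10, 13 and 13) fell to 6, 6 and 6 after quantile normalization, to 6 and 8 at 1 and 10 mg/kg after a shift to one median, and to 4, 7 and 6 after scaling to the hybridisation controls, which also left 1 mitotic and 2 replication genes between 1 and 10 mg/kg. With rats 1 to 4 alone at 1 mg/kg the counts between 1 and 10 mg/kg were 1 mitotic and 1 replication gene as deposited, 0 and 2 (1 higher and 1 lower) after quantile normalization, and 0 and 1 on both scales, and the replication counts after quantile normalization were 6 at 1 mg/kg and 8 between 0.1 and 1 mg/kg. The mean over a gene's probe sets left 2 mitotic genes between 1 and 10 mg/kg. For counts the cause was not tested.

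Leaving out 1 array gave, on both scales, 22 to 26 mitotic and 4 to 6 replication genes at 1 mg/kg, 25 to 27 and 6 to 7 at 10 mg/kg, 24 to 26 and 4 to 6 between 0.1 and 1 mg/kg, and 2 to 4 and 3 between 1 and 10 mg/kg. At 0.1 mg/kg the counts were 0 throughout. Correlations that passed missed the threshold after quantile normalization for Rrm2 with Mcm6 (r = 0.64 with vehicle and 0.66 at 0.1 mg/kg) and Ccnb1 with Mcm6 (0.57 at 0.1 mg/kg and 0.67 at 10 mg/kg). Without the 2 farthest rats those that missed it were Ccnb1 with Cdc20 (0.77 at 0.1 mg/kg and 0.75 at 1 mg/kg), Rrm2 with Mcm6 (0.60 with vehicle, then 0.77, 0.63 and 0.73) and Ccnb1 with Mcm6 (0.39 at 0.1 mg/kg and 0.36 at 10 mg/kg), where 8 rats remain, while Ccnb1 with Mcm6 passed with vehicle (0.85). Arrays in different groups share replicate numbers. In a replicate block, 26 mitotic and 6 replication genes passed on both scales at 1 mg/kg, 27 and 7 did at 10 mg/kg, 25 and 6 between 0.1 and 1 mg/kg, 3 and 3 between 1 and 10 mg/kg, and 0 at 0.1 mg/kg. Over all pairs of groups the deviations of same-numbered arrays correlated at -0.267 to 0.368 (median 0.0414), over 0.1 in 17 of 60 pairs. In 19 of 120 comparisons of an array with the 10 arrays of another group its own number was the best match. Between the 1 and 10 mg/kg groups the correlations were 0.248 to 0.368 for rats 1, 4, 6, 7 and 8 and lower for the rest, down to -0.146 for rat 10. Whether same-numbered rats share more than a number was not tested.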
